A study of Mus musculus with 4 samples.

Results

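Genes that switch on when the mammalian embryo begins to gastrulate were followed in RNA-seq data of mouse embryonic stem (ES) cells. The genes were chosen by name, with earlier results of these data known, as transcription factors of the primitive streak, the mesendoderm and the early mesoderm. All 10 were found by symbol among the 22718 genes of the deposited tables. They are the T-box genes T, Eomes and Tbx6, the homeobox genes Mixl1, Gsc, Evx1, Lhx1 and Cdx1, and the basic helix-loop-helix (bHLH) genes Mesp1 and Msgn1. RNA came from 1 wild type library and from 1 that is labelled Prep1-/-, made from the KO2 line. Both lines are C57Bl6 ES cells kept undifferentiated with leukemia inhibitory factor, and each genotype is represented by 1 line. Prep1, encoded by Pknox1, is a homeodomain protein of the TALE class that binds DNA together with Pbx partners. Prep1 binding was measured in a separate experiment on wild type ES cells by ChIP-seq with 1 immunoprecipitated library, called against input DNA. For these cells the methods name R1, a different line, while the sample labels give the strain C57Bl6. The comparison asks how the RNA of these genes differs between wild type ES cells and ES cells labelled Prep1-/-.

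The primitive streak is the furrow at the posterior side of the gastrulating embryo through which epiblast cells move to become mesoderm and definitive endoderm. Wnt and Nodal signals turn on T, Eomes and Mixl1 in the cells that enter it. Cells that leave the anterior streak use Gsc and Lhx1, and those that leave the posterior streak use Evx1, Cdx1, Tbx6 and Msgn1. Undifferentiated ES cell cultures often hold a minority of cells that transcribe some of these genes. In bulk RNA such as this, fewer cells that use a gene and less RNA of it per cell cannot be told apart.

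The depth was 29596294 counted reads for the wild type and 25717811 for the library labelled Prep1-/-. The study's methods give far fewer reads per sample, and the sources used here do not explain the difference. If fragments were counted more than once, the counting intervals given below are too narrow. RPKM counts reads relative to gene length and to library size, and the KO/WT ratio sets the RPKM of the library labelled Prep1-/- over that of the wild type. Pknox1 itself gave 505 reads in wild type cells against 332 in the library labelled Prep1-/-, which puts its KO/WT ratio at 0.736 (95% interval 0.638 to 0.846). Because Pknox1 kept reads, its label is used to name that library, and all directions below depend on it. Reads of the gene do not tell whether the protein is present. On immunoblots the study reports loss of Prep1 protein in its Prep1-/- lines, including the line of this library. All 5 genes of chromosome Y with at least 20 reads had 0 wild type reads and from 24 to 310 reads in the library labelled Prep1-/-, so that the cell line and the genotype cannot be told apart. Genes of chromosome 8 had a median KO/WT ratio of 0.779, and none of the 10 streak factors lies there. Pou5f1, a defining gene of ES cells, stood at an RPKM of 323 in the wild type and 360 in the library labelled Prep1-/-. With 1 library per genotype there are no replicates, no test was possible, and the intervals given are exact (Clopper-Pearson) intervals that cover the counting error between these libraries only. Several reads can stem from a single molecule, which makes the real error larger.

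Most of the streak factors were lower in the library labelled Prep1-/-. Ratios were below 1 for 9 of the 10 genes, with Tbx6 as the exception, and below 0.7 for 8 of them. The median ratio of the 10 genes was 0.336, a log2 ratio of -1.58, beside a median ratio of 0.947 over the 15588 genes with at least 20 reads in the libraries together. With 1 RPKM added to both libraries, which shrinks the ratios of low genes, the median log2 ratio of the 10 was -0.71. Of the 6 streak factors with a wild type RPKM above 1, 5 had a ratio below 0.7, namely T, Eomes, Mixl1, Cdx1 and Msgn1. Over all genes with a wild type RPKM above 1 the same was true of 13.8%. By the criterion of at least 20 reads in the libraries together, which all 10 streak factors met, 8 were below 0.7 (7 with 1 RPKM added, since Mesp1 then stood at 0.763), beside 15.2% of all such genes and 16.7% of those with a wild type RPKM within the range of the 10. The whole counting interval lay below 0.7 for 7 of the 10, beside 5.15% of all genes with at least 20 reads. As the 10 were chosen with earlier results of these data known, these shares describe them and are not a test. No streak factor had a ratio above 1.5. That threshold was passed by 7.2% of the genes whose RPKM exceeded 1 in the library labelled Prep1-/- and by 6.99% of those with at least 20 reads. The plot of the levels sets the libraries side by side.

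**Figure D1:**
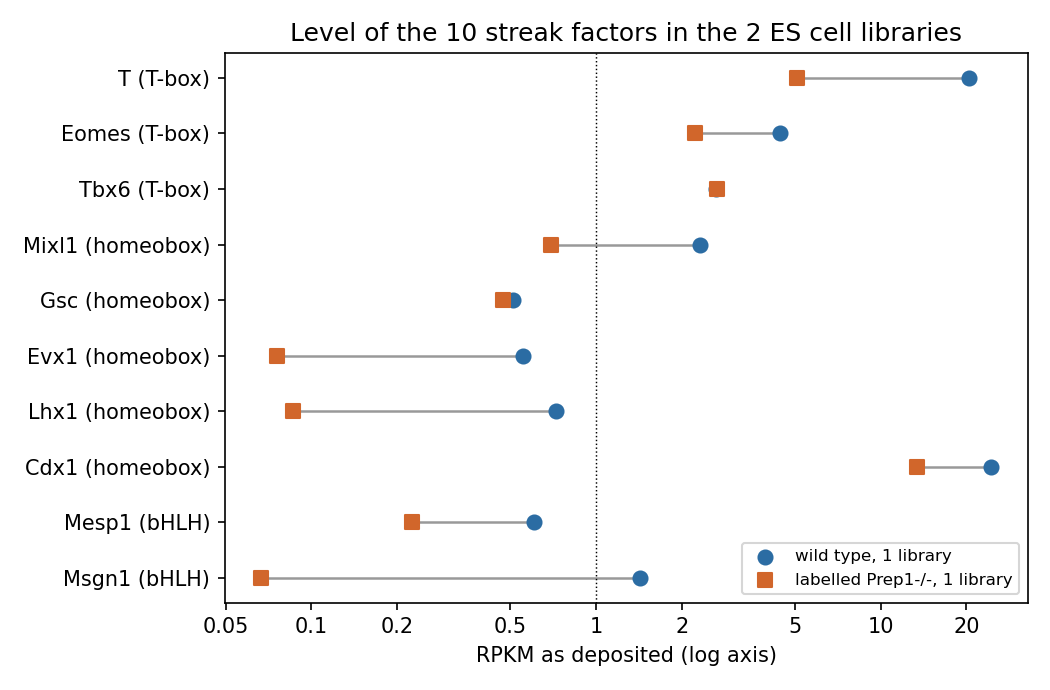
RPKM as deposited (log axis) of the 10 streak factors, grouped by protein class, with 1 circle for the wild type library and 1 square for the library labelled Prep1-/-, joined by a line, and a dotted line at an RPKM of 1. The square lies left of the circle for 9 genes and on it for Tbx6, and the square of Msgn1 stands for 0 reads, whose RPKM of 0.0667 comes from a read that was added to every gene.

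T, also called Brachyury, is the T-box factor that marks the whole streak and is needed to form posterior mesoderm. It lies on the plus strand at chr17:8627288-8635361 of mm9 (ENSMUSG00000062327). T gave 1091 reads (RPKM 20.5) in wild type cells against 242 reads (RPKM 5.09) in the library labelled Prep1-/-. Its ratio was thus 0.249 (0.215 to 0.285), which is 4.02-fold lower. Only 86 of the 15588 genes with at least 20 reads, or 0.552%, had a ratio as low or lower. T was the second most abundant of the 10 factors in both libraries, and of the 3 with the most reads it had the lowest ratio.

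A Prep1 peak lies 32.7 kb downstream of the start of T, beyond its 3′ end and in no annotated gene, at chr17:8659692-8660234. The start of T is the closest of any gene in the tables to this peak. Its fold enrichment over input, as the peak caller gave it and rounded, was 30, and 38% of the 3902 peaks were higher. The central 300 bases of the peak, chr17:8659814-8660113 on the plus strand of mm9, are shown with a match in capitals. Of the peaks nearest to T and Eomes, only that of T held an exact match to the first 9 letters of the Prep1 consensus.
T peak: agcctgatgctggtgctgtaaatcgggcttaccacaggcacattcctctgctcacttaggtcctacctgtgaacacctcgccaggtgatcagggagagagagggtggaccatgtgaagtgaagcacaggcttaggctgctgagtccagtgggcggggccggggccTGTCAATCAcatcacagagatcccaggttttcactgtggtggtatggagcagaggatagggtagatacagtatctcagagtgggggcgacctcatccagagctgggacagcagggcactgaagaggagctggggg
The capitals are TGTCAATCA, the minus-strand form of TGANTGACA, which makes up the first 9 letters of the decamer that Prep1 prefers. They begin at base 166 of the window. Of all peaks, 32.7% held TGANTGACA on either strand in their central 300 bases. With motif programs the study found the decamer in most of its peaks, so this exact letter search is stricter and misses many of them. The match describes these letters and is not a measured binding site.

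Eomes, a T-box factor needed for definitive endoderm and for mesoderm cells to leave the streak, is on the plus strand at chr9:118387330-118395250 (ENSMUSG00000032446). It gave 786 reads (RPKM 4.42) in wild type cells against 354 (RPKM 2.23) in the library labelled Prep1-/-. The ratio was 0.504 (0.443 to 0.572), above that of T, and the intervals of T and Eomes did not overlap. A share of 4.39% of the genes with at least 20 reads had a ratio as low or lower. Eomes was the only streak factor with a Prep1 peak centred within 20 kb of its start.

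This peak, chr9:118405847-118406593, was centred 18.9 kb downstream of the start of Eomes and in no annotated gene. Its rounded fold enrichment was 63, with 22.1% of the peaks higher. The start of Golga4, on the far side of the peak, was closer, at 9.2 kb. The central 300 bases, chr9:118406071-118406370 on the plus strand of mm9, are printed for comparison with the T peak.
Eomes peak: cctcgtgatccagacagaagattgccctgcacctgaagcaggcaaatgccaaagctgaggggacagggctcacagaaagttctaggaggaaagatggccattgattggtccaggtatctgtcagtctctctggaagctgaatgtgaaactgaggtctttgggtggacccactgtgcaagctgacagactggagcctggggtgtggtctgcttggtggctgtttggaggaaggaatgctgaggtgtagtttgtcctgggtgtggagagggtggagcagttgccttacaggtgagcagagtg
TGANTGACA was found nowhere in the Eomes peak, nor was the looser TGANTGNCA, which includes it and stood in 45.1% of the central windows of all peaks. Forms of the Prep1 consensus that differ at other letters were not searched, so a weaker Prep1-like site in this peak remains possible.

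Tbx6, the T-box factor that directs cells to paraxial mesoderm instead of neural tissue, did not share this pattern. It lies on the plus strand at chr7:133924997-133929074 (ENSMUSG00000030699). It gave 159 reads (RPKM 2.65) in wild type cells against 143 (RPKM 2.67) in the library labelled Prep1-/-. The ratio of 1.01 had an interval from 0.797 to 1.27, which lies above the intervals of T and Eomes. A ratio as low as that of T or Eomes is thus outside the counting error for Tbx6. The nearest Prep1 peak was centred 51 kb downstream of its start, had a rounded fold enrichment of 116, and was closer to the start of Doc2a, at 15 kb.

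Among the homeobox genes, Mixl1, which acts in mesendoderm and limits the number of mesoderm cells, is on the minus strand at chr1:182623174-182627165 (ENSMUSG00000026497). It gave 163 reads (RPKM 2.32) in wild type cells against 43 (RPKM 0.695) in the library labelled Prep1-/-. Its ratio was 0.300 (0.206 to 0.415), or 3.33-fold lower, and its interval overlapped that of T. With 1 RPKM added it was 0.511. Mixl1 passed from above to below an RPKM of 1, as Msgn1 did.

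Cdx1, a caudal-type factor that sets posterior identity and answers to Wnt and retinoic acid, had the highest level of the 10 genes in both libraries. It lies on the minus strand at chr18:61178516-61195853 (ENSMUSG00000024619). Cdx1 gave 1258 reads (RPKM 24.4) in wild type cells against 620 (RPKM 13.5) in the library labelled Prep1-/-. The ratio was 0.552 (0.500 to 0.607), and 6.03% of the genes with at least 20 reads had one as low or lower. This is the smallest difference among the 8 genes below 0.7, and its interval overlapped that of Eomes and not that of T.

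Lhx1, a LIM homeobox factor of the anterior mesendoderm and head organizer, is on the minus strand at chr11:84331479-84338923 (ENSMUSG00000018698). It gave 112 reads (RPKM 0.725) in wild type cells against 11 (RPKM 0.0861) in the library labelled Prep1-/-. The ratio of 0.119 (0.0533 to 0.204) is 8.42-fold lower, and 20 of the 15588 genes had one as low or lower. Lhx1 did not reach an RPKM of 1 in either library and so falls outside the calls that ask for it, although its interval lay below that of T. With 1 RPKM added to both libraries its ratio was 0.629, so the size of this fold rests on levels under 1.

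Evx1, the even-skipped homologue of the posterior streak, is on the plus strand at chr6:52263492-52268372 (ENSMUSG00000005503). It gave 48 reads (RPKM 0.554) in wild type cells against 5 (RPKM 0.0759) in the library labelled Prep1-/-, a ratio of 0.137 (0.0362 to 0.291). With 1 RPKM added the ratio of Evx1 was 0.692. The annotated antisense gene 5730457N03Rik overlaps Evx1, and while the study speaks of transcripts from the sense strand, no strand setting of the library kit is given in the sources used here. If strand was not used, reads of this pair cannot be told apart. Of the 10 factors, Evx1 was the only one that another annotated gene overlaps.

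Gsc, the goosecoid homeobox gene of the organizer and anterior streak, lies on the minus strand at chr12:105709419-105711537 (ENSMUSG00000021095). Gsc gave 16 reads (RPKM 0.512) in wild type cells against 13 (RPKM 0.471) in the library labelled Prep1-/-. The ratio of 0.921 had an interval from 0.402 to 2.01, which takes in both the 0.7 and the 1.5 threshold. At this depth a difference of that size in either direction was not detectable.

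Mesp1 and Msgn1 are bHLH factors, the first of nascent and cardiac mesoderm and the second of presomitic mesoderm. Mesp1 (ENSMUSG00000030544), on the minus strand at chr7:86937127-86938674, gave 17 reads (RPKM 0.608) in wild type cells against 5 (RPKM 0.227) in the library labelled Prep1-/-. Its ratio was 0.373, and the interval from 0.0949 to 0.929 reaches above 0.7. Mesp1 is therefore the only one of the 8 lowest genes whose counting error takes in the 0.7 threshold.

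Msgn1 (ENSMUSG00000047002), on the minus strand at chr12:11215188-11215754, gave 23 reads (RPKM 1.43) in wild type cells against 0 reads in the library labelled Prep1-/-. Against a floor of 3 reads in that library, and with the wild type count taken as it stands, Msgn1 was at least 6.86-fold lower. The deposited RPKM gives a ratio of 0.0466, which rests on the read added to every gene, and the interval, which adds the error of the wild type count, runs from 0 to 0.195 and so allows a smaller difference than that floor. With 1 RPKM added to both libraries the ratio of Msgn1 was 0.439. Msgn1 was the only one of the 10 factors without a read in one library, and with 23 reads it is also among the 4 with fewer than 100 reads together, beside Gsc, Evx1 and Mesp1.

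Promoter sequences from RefSeq (GRCm38.p6) were found for 8 of the 10 factors, all but Mixl1 and Cdx1. The core letters CTTTGAT, which Tcf/Lef factors of the Wnt pathway bind, stood in the 250 bases before the start of Mesp1 and Msgn1 and in neither strand of the other 6. Of 32851 RefSeq promoters of this length, 3.21% held CTTTGAT on either strand. These promoters are shown because they are the ones with that match, each read along its gene and with the match in capitals. Mesp1 is chr7:79793591-79793840 and Msgn1 is chr12:11208949-11209198 on the minus strand of GRCm38.p6, whose positions are not comparable with those of mm9.
Mesp1 promoter: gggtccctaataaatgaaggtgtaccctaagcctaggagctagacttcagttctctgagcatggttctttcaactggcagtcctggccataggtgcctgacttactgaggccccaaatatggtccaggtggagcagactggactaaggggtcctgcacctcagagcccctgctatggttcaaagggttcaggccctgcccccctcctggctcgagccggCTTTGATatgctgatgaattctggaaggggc
Msgn1 promoter: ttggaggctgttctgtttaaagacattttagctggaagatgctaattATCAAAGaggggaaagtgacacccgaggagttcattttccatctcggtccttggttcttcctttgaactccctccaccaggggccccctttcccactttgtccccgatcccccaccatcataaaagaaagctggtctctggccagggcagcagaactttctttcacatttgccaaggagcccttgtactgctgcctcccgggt
The match in the Mesp1 promoter is on the gene's own strand, at positions -31 to -25 from the start, and that in the Msgn1 promoter is on the other strand, at -203 to -197. Neither TGANTGACA, found in 1.67% of all such promoters, nor TGANTGNCA, found in 4.3%, stood in any of the 8 promoters.

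The plot of the KO/WT ratios shows how far the 10 genes differ among themselves. Both bHLH genes, 2 of the 3 T-box genes and 4 of the 5 homeobox genes were below 0.7, so the low ratios were not confined to 1 protein class. The median ratio of the chromosomes that carry the factors ranged from 0.923 to 1.04, and the ratio of each of the 8 genes below 0.7 was lower than that of its chromosome.

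**Figure D2:**
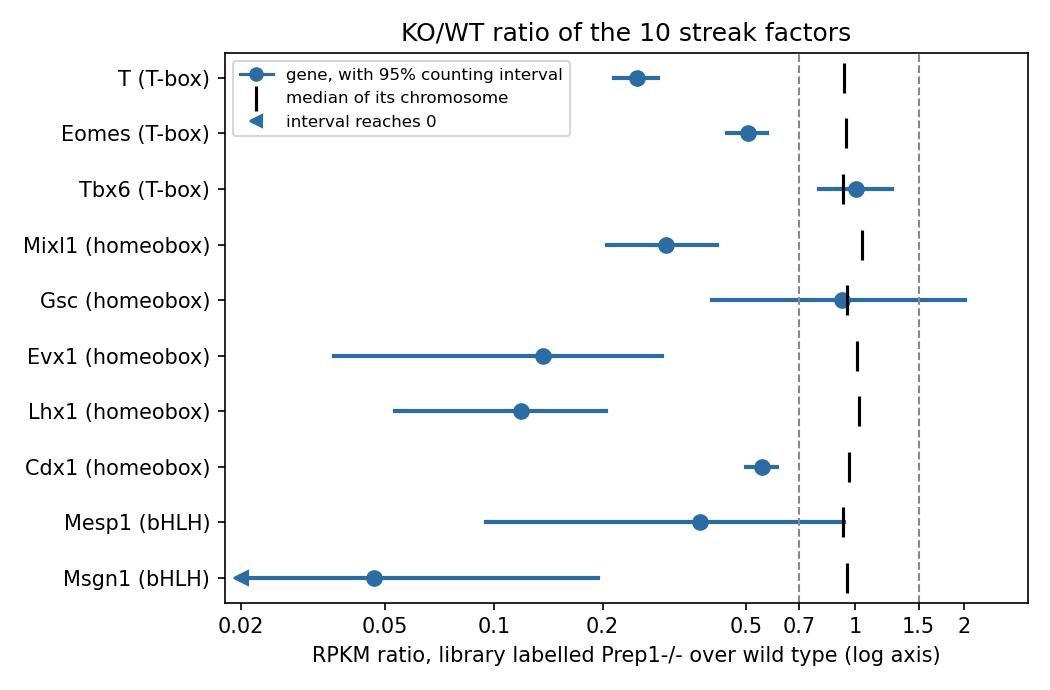
KO/WT ratio of RPKM (log axis) for each streak factor as a circle with its 95% counting interval as a bar, the median ratio of its chromosome (over genes whose RPKM exceeded 1 in each library) as a vertical mark, and dashed lines at 0.7 and 1.5. The bars of Tbx6 and Gsc cross 1, and the other 8 end below it, with that of Mesp1 reaching 0.929 and that of Msgn1 starting at 0.

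In the order of RPKM in the wild type library, Cdx1 and T stood first and Gsc last. By exact Poisson intervals, which cover counting error only, Cdx1, T and Eomes each differed from the next gene in that order. Tbx6 and Mixl1, Mixl1 and Msgn1, and the adjacent pairs among Lhx1, Mesp1, Evx1 and Gsc did not. In the library labelled Prep1-/-, Cdx1 and T were again first, and Tbx6 stood above Eomes, though the intervals of Tbx6 and Eomes overlapped. Only 4 of the 10, Cdx1, T, Tbx6 and Eomes, kept an RPKM above 1 there, against 6 in the wild type library. The summed RPKM of the 10 genes was 58.1 for the wild type and 25.1 for the library labelled Prep1-/-, a ratio of 0.432. T and Cdx1 together held 64.0% of the reads of the 10 genes for the wild type and 60.0% of those for the library labelled Prep1-/-.

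The genes on either side of the streak factors were read next. The nearest gene with at least 20 reads was taken on each side, which gave 20 genes at gaps of 0.347 to 328.1 kb with a median ratio of 1.02. Of these, 15 lay between 0.7 and 1.5, 4 were below 0.7 and 1 was above 1.5, beside 15.2% and 6.99% of all genes with at least 20 reads, which is near the neighbours' own shares. Of the 10 streak factors, 8 had a lower ratio than both of their neighbours. For Evx1 and Mesp1 the interval overlapped that of at least 1 neighbour.

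T stood at 0.249 between Prr18, at 1.34, and Pde10a, a phosphodiesterase gene at 0.675 (0.555 to 0.814). Mixl1 stood at 0.300 between Lin9, at 1.18, and Acbd3, at 1.05. Lhx1 stood at 0.119 between Aatf, at 1.16, and Mrm1, at 1.03. These factors were thus lower than neighbours on both sides, by intervals that did not overlap. Cdx1 was flanked by Slc6a7, an amino acid transporter gene at 1.71 (1.24 to 2.40), the only neighbour above 1.5, and by Pdgfrb, at 0.813. Tbx6 lay 0.969 kb from Ypel3, at 0.746, and 0.347 kb from Ppp4c, at 0.949. In the wild type their RPKM was 40.7 and 178, against 2.65 for Tbx6. Whether reads of such close and abundant genes were counted for Tbx6 was not tested.

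Evx1 differed from this pattern on 1 side. It closes the Hoxa cluster, and the nearest gene of that side with at least 20 reads was Hoxa10, which gave 23 reads in wild type cells against 2 in the library labelled Prep1-/-. The ratio of Hoxa10 was 0.140 (0.0111 to 0.393), beside 0.137 for Evx1. On its other side Hibadh, a valine catabolism gene, was at 1.19. Mesp1 also lay beside a low gene, its paralogue Mesp2, which had 250 and 143 reads and a ratio of 0.641 (0.517 to 0.789). The fourth low neighbour, Serpina3m, a serine protease inhibitor gene, was at 0.317 (0.170 to 0.520) beside Gsc.

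**Figure D3:**
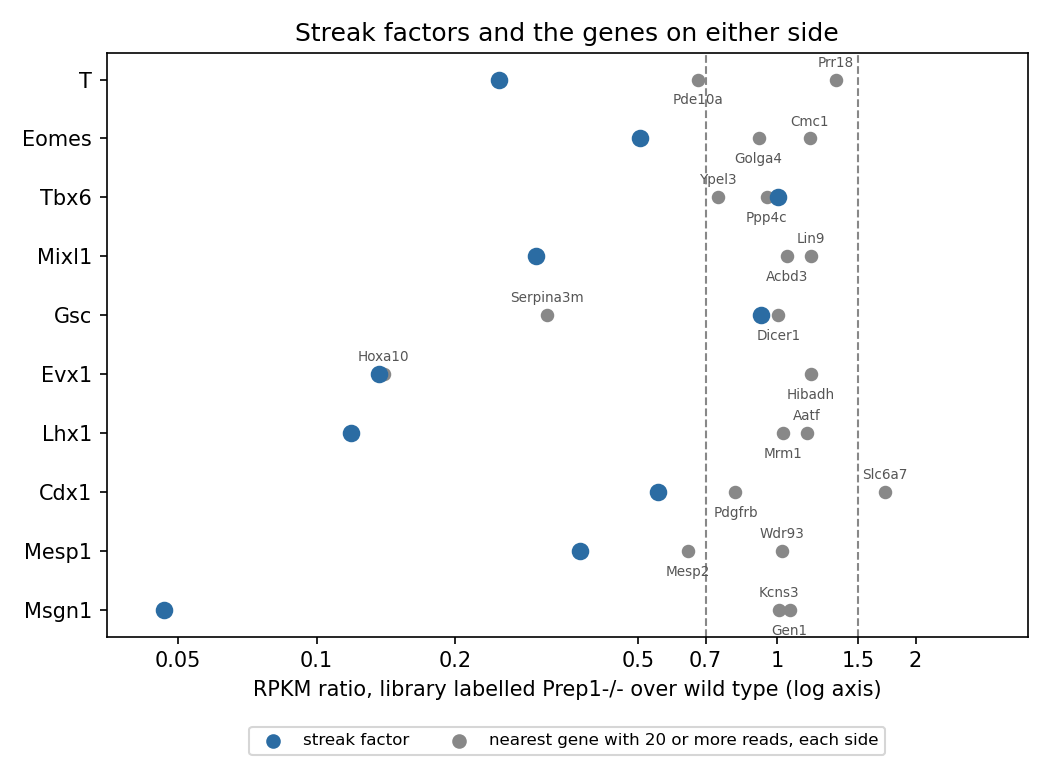
KO/WT ratio of RPKM (log axis) of each streak factor (large circle) and of the nearest gene with at least 20 reads on each side (small named circles), with dashed lines at 0.7 and 1.5. Of the 20 neighbours 15 lie between the dashed lines, and Hoxa10 beside Evx1 is the lowest, at 0.140.

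The gene lists read from here on were also chosen with earlier results of these data known, so their shares are not a test. The signals that induce the streak were split. Of 9 such genes, 8 had a wild type RPKM above 1, and 3 of them were below 0.7, beside 13.8% of all genes. These 3 were Fgf8, an Fgf ligand of the streak, at 0.251 (476 and 106 reads), Wnt3, the ligand required to start the streak, at 0.276 (583 and 143 reads), and Wnt8a, a posterior Wnt ligand, at 0.371 (192 and 63 reads). Their ratios lie in the range of those of T, Mixl1 and Mesp1. Wnt3a, a later streak ligand under an RPKM of 1, was at 0.549 (0.327 to 0.868, 56 and 27 reads), which makes 4 of 9 genes below 0.7 by at least 20 reads, beside 15.2% of all such genes. None of the Nodal pathway genes of the list was below 0.7. Nodal, the ligand, was at 1.05 (0.979 to 1.12), its co-receptor gene Tdgf1 was at 1.30 (1.25 to 1.35) and its inhibitor gene Lefty2 at 1.46 (1.33 to 1.61). Fgf4 stood at 1.22 and Bmp4 at 0.798. The summed RPKM of the list, in which Tdgf1 is the most abundant, was 276 for the wild type and 318 for the library labelled Prep1-/-.

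Other genes of the posterior streak and presomitic mesoderm were low as a rule. Of 16 genes listed 15 were found, of which 10 had a wild type RPKM above 1 and 9 of these were below 0.7, against 13.8% of all genes. The median ratio of the 14 with at least 20 reads was 0.538. They included Axin2, a feedback target of Wnt signalling, at 0.458 (2125 and 870 reads), and Sp5, a further Wnt target, at 0.498 (1280 and 570 reads). The paralogues of Cdx1 were both lower than Cdx1, with Cdx2 at 0.221 (0.147 to 0.311) and Cdx4 at 0.435 (0.239 to 0.718), although only the interval of Cdx2 lay apart from that of Cdx1. The remaining low genes were Nkx1-2 at 0.337, Dll3 at 0.570, Snai1 at 0.598, Kdr at 0.639 and Mesp2 at 0.641. Lef1, a Wnt effector, was the gene of this filter above 0.7, at 0.970. Dll1, a Notch ligand of presomitic mesoderm, was on the other side, with 84 and 115 reads and a ratio of 1.53 (1.15 to 2.05), and was the only one of these genes past 1.5.

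Genes of the anterior streak, node and definitive endoderm gave few calls. Of 10 genes, 5 had a wild type RPKM above 1 and none was below 0.7, beside 13.8% of all genes, a share that is too near for these 5 genes to be told from it. Lefty1 was at 0.936, Nog at 0.897, Hhex at 0.907, Cxcr4 at 0.955 and Chrd at 1.46. Of the 8 genes of this list with at least 20 reads, 3 had a ratio below 0.7, beside 15.2% of all such genes, and all 3 had an RPKM under 1, namely Sox17 at 0.425 (49 and 18 reads), Foxa2 at 0.526 (84 and 39 reads) and Dkk1 at 0.503 (19 and 8 reads). Cer1 had no read in either library. Among the streak factors the anterior genes Gsc and Lhx1 were at 0.921 and 0.119, both at an RPKM under 1, and their intervals did not overlap.

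**Figure D4:**
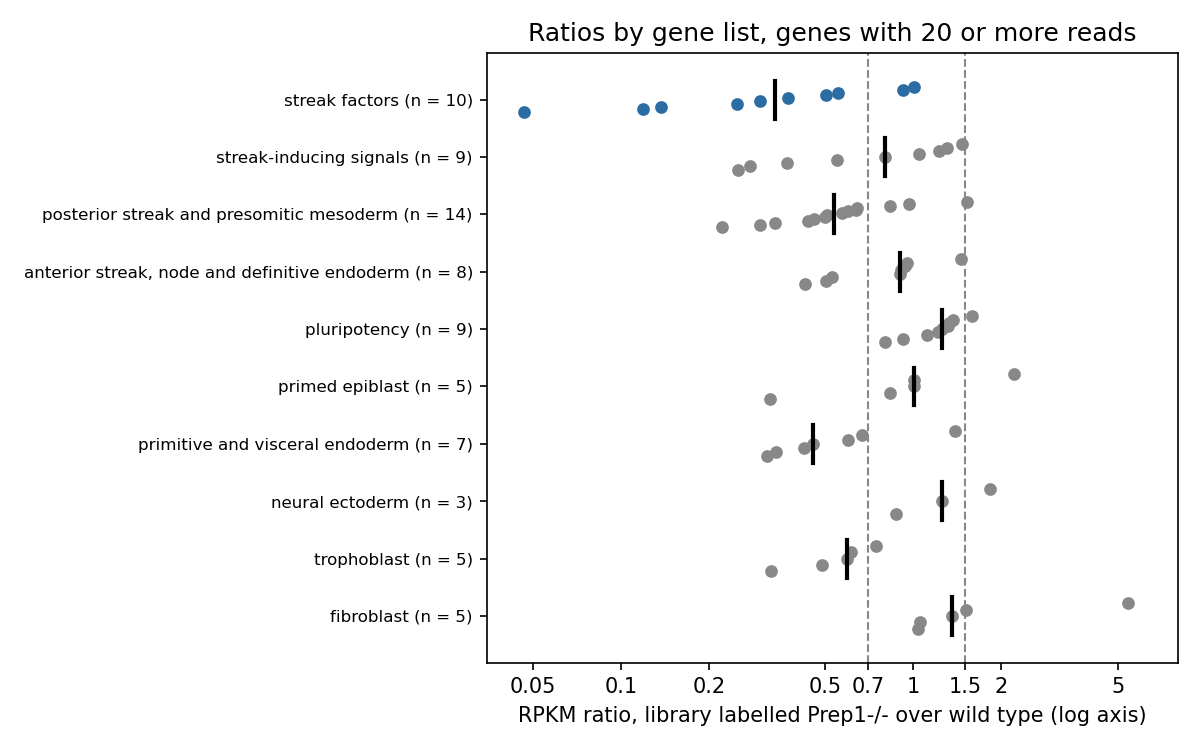
KO/WT ratio of RPKM (log axis) of the 10 streak factors and of the genes of 9 lists with at least 20 reads in the libraries together, each gene 1 circle spread vertically in order of its ratio, with black bars at the medians and dashed lines at 0.7 and 1.5. The medians of the streak factors, the posterior streak list, the primitive and visceral endoderm list and the trophoblast list lie left of 0.7, and that of the pluripotency list is at 1.25.

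Markers of other cell types that an ES culture can hold were read in the same way. Of the 9 pluripotency genes none was below 0.7, beside 13.8% of all genes, and 1, Klf4, was past 1.5, at 1.58, beside 7.2%. Their summed RPKM was 803 for the wild type and 988 for the library labelled Prep1-/-. Ratios were below 1 for 2 of the 9, and the median ratio of the list was 1.25, beside 0.947 over all genes with at least 20 reads. Esrrb and Sox2, which had the most reads, were both at 1.32. These 9 genes are too few to tell the counts past a threshold from those shares of 13.8% and 7.2%. Of the 5 primed epiblast genes none with a wild type RPKM above 1 was below 0.7, and Otx2, at 2.20 (220 and 434 reads), was above 1.5. These counts cannot be told from the same shares either. Fgf5, the defining primed gene, had 44 and 12 reads, a ratio of 0.323 at an RPKM under 1.

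Primitive and visceral endoderm genes were low together with the streak factors. Of 6 with a wild type RPKM above 1, 5 were below 0.7, beside 13.8% of all genes, among them the defining factors Gata4 at 0.339 (1156 and 350 reads) and Gata6 at 0.456 (107 and 43 reads). Ttr, Amn and Dab2 were at 0.424, 0.597 and 0.667, while Sox7 was at 1.39. The summed RPKM of this list was 17.4 for the wild type and 9.50 for the library labelled Prep1-/-, and none of its genes was at 0 reads. Trophoblast genes were low as well, with 4 of 5 below 0.7 beside the same share of all genes, and summed RPKM of 839 and 496. Hand1 was at 0.325, Krt7 at 0.489, Krt18 at 0.595 and Krt8 at 0.614, whereas Gata3 was at 0.744 and Elf5 had 3 and 7 reads. Hand1 is also a mesoderm gene and the keratins are shared by many epithelia. Conversely, Cdx2, read above with the posterior streak genes, is the marker of trophectoderm in the study's embryos. The part of these cell types in the ratios of the streak factors was not tested.

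Of the 3 neural genes reported, Pax6 was past 1.5, at 1.83 (358 and 588 reads), beside 7.2% of all genes. Sox1 and Zic1 lay between the thresholds. The summed RPKM of the 3 was 2.69 and 3.75. No fibroblast gene with a wild type RPKM above 1 was past a threshold, beside 13.8% below 0.7 and 7.2% above 1.5 of all genes. Those with the most reads were Col1a1 at 1.36 and Col1a2 at 1.06. Both lists are too short to be told from these shares. Below an RPKM of 1 in the wild type, Postn had 6 and 33 reads and Col3a1 27 and 37, with ratios above 1.5. That makes 2 of 5 fibroblast genes by at least 20 reads, beside 6.99% of all such genes. The summed RPKM of that list was 24.0 and 29.8.

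The Prep1 peaks were set against the starts of the streak factors. Eomes was the 1 factor of 10 with a peak centred within 20 kb of its start, beside 18.8% of the 21446 genes placed on mm9. Within 100 kb the count was 3 of 10, Eomes, T and Tbx6, beside 45.5% of all genes. Both counts are near the share of all genes. The nearest peak to Mixl1 was 125.8 kb from its start, to Cdx1 181.5 kb, to Mesp1 194.2 kb, to Evx1 326.9 kb, to Gsc 408.6 kb, to Lhx1 456.6 kb and to Msgn1 968.9 kb. The 3 factors with the nearest peaks had ratios of 0.504, 0.249 and 1.01. Lhx1, Evx1 and Msgn1, the 3 with the lowest ratios, had their nearest peaks at 456.6, 326.9 and 968.9 kb. That of Gsc, at a ratio of 0.921, lay in the same range, at 408.6 kb. Per the methods the peaks come from another ES cell line than the RNA, and the antibody weakly recognizes Prep2 too.

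**Figure D5:**
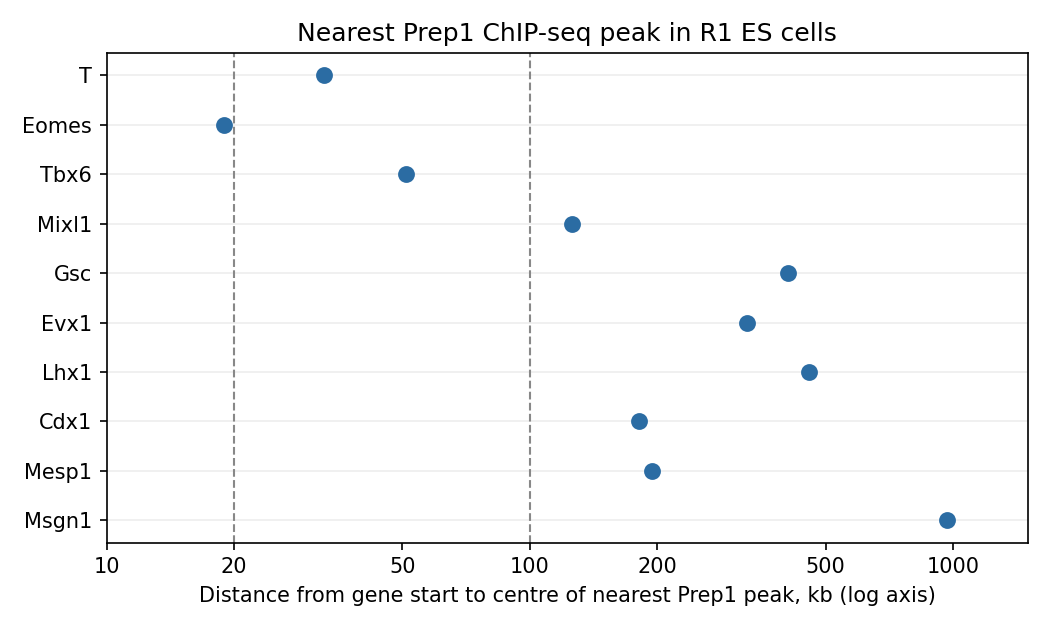
Distance from the start of each streak factor to the centre of the nearest Prep1 peak in kb (log axis), 1 circle per gene, with dashed lines at 20 and 100 kb. Eomes is the only factor left of 20 kb, T and Tbx6 lie between the lines, and Msgn1 is the farthest, at 968.9 kb.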

How the data were processed

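The streak factors and all gene lists were chosen with earlier results of these data known. mRNA libraries were made with an Illumina TruSeq kit, sequenced from both ends (50 bp), and quantified by RSEM on the Ensembl release 63 gene set of mm9, and DESeq is also named in the submitters' processing notes. No versions are given in the sources used here. For each gene the authors deposited a whole-number read count without normalization. The authors also deposited RPKM, in which reads are scaled to gene length and library size. The RPKM ratio equalled 1.12 times the ratio of the counts plus 1 for every finite gene, so a read was added to each gene, and 85 genes listed as Inf were left out. ChIP-seq reads of 36 bp were mapped with BWA and peaks called with MACS against input, and the authors deposited peaks with a score, which is the rounded fold enrichment. The start and end in that file were taken as counted from 1.

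From these files the KO/WT ratio was taken without a pseudocount. A gene counted as low if its ratio was under 0.7 and its wild type RPKM over 1, and as high if its ratio was over 1.5 and its RPKM in the library labelled Prep1-/- over 1. Since each genotype has 1 library, no count test was run. Intervals are exact binomial 95% intervals of the read share, multiplied by 1.12. They were also run on simulated Poisson counts, which hold counting error alone and so cannot show how the intervals fare under other error. Gene positions are from GENCODE M1 on mm9, which held 21446 of the 22718 genes, and distances run from the gene start to the peak centre. Motifs were searched on both strands. The plan was to name the streak factors, their neighbours and Pknox1. In each list it was to name the genes past a threshold and, of the others, the 2 with the most reads. Some neighbours and some of those most-read genes are left out of the text. Of the neural list, 2 genes are not reported here. Further list genes, including those under an RPKM of 1, were named after their values were seen. Alternatives were 3 other scalings, pseudocounts of 0.1 and 1 RPKM, other filters and thresholds, and other peak limits. The scripts ran in Python 3.11.15 with scipy 1.17.1, pandas 2.3.3, matplotlib 3.10.9 and numpy 2.4.6.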

Additional observations from a re-analysis of the deposited data

How the results depend on the processing

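Of the 6 streak factors with a wild type RPKM above 1, 5 were below 0.7, and this count was 5 under all 3 other scalings, with 0.1 or 1 RPKM added, with a threshold of 1/1.5 and when the whole interval had to lie below 0.7. It became 8 with an RPKM filter of 0.5, with no filter and with a minimum of 20 reads, since more genes are then counted, and 3 with thresholds of 0.5 and 2. The median log2 ratio of -1.58 ranged from -1.55 to -1.51 under the other scalings, and was -1.36 with 0.1 RPKM and -0.71 with 1 RPKM added, as an added amount shrinks the ratios of low genes. Within 100 kb in place of 20 kb, 3 factors had a peak in place of 1. Further alternatives were chosen after the data were seen. Of these, a minimum of 20 reads raised the low genes of the anterior streak list from 0 to 3, and 1 RPKM added lowered the low neighbours from 4 to 1, the low posterior streak genes from 9 to 7 and the low streak factors with at least 20 reads from 8 to 7, without Mesp1 at 0.763. Of 50 recomputed ratios of single streak factors, 6 left their counting intervals, all with an added pseudocount, and none of the low genes passed 1. Leaving out a replicate was not possible with 1 library per genotype. No paired analysis was possible because each genotype has 1 library. Depth limits Gsc, Mesp1, Evx1 and Msgn1, each with fewer than 100 reads in the libraries together.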

Other observations

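The relatives of the streak factors were read by gene family, a grouping chosen after the ratios of the streak factors were known. Besides T, Eomes and Tbx6, 8 further T-box genes had at least 20 reads in the libraries together, and 5 of them had a KO/WT ratio below 0.7, with a median ratio of 0.608 over the 8. By comparison, 15.2% of all genes with at least 20 reads were below 0.7. Tbx1, a factor of the pharyngeal region, gave 56 reads in wild type cells against 16 in the library labelled Prep1-/-, a ratio of 0.333 (0.171 to 0.565). Tbx4, a limb factor, had 112 and 37 reads and a ratio of 0.376 (0.248 to 0.540). The T-box gene with the most reads, Tbx3, which ES cells use in the pluripotent state, went the other way, with 4285 and 4637 reads and a ratio of 1.21 (1.16 to 1.26). Most of these genes other than Tbx3 stood at an RPKM of about 1 or less.

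Among the LIM homeobox relatives of Lhx1, 4 had at least 20 reads, with a median ratio of 0.755. Of these, 2 were below 0.7, beside 15.2% of all genes with at least 20 reads, and 4 genes are too few to tell the count from that share. The low ones were Lhx5 at 0.683 (0.371 to 1.19) and Lhx2 at 0.699 (0.437 to 1.08), whose intervals take in 1. Lhx6 was the most abundant, at 0.811 (586 and 425 reads), and Lhx9 was at 2.19 (1.33 to 3.87), with 23 and 46 reads. None of the 4 came near the ratio of 0.119 of Lhx1.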
